A study of Sorghum bicolor with 4 samples.

Results

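The deposited expression table of the sweet sorghum stem holds 1773 rows that carry no gene ID, out of 34458 rows in all (5.15%). These rows were chosen by the dash that stands in place of a gene name, and no expression value entered the choice. All 1773 have a row ID with the prefix MSTRG, a prefix used by the transcript assembler StringTie. The prefix is not particular to them, since 20778 of 31423 rows with a single gene ID also carry it. Such rows are called assembled below. The RNA came from the middle internode of field-grown plants of the sweet variety SSV84 of Sorghum bicolor, sampled at booting (2 libraries), the milky stage (1 library) and physiological maturity (1 library), with no other treatment in the labels. The table gives 1 FPKM value per row and stage, made by the authors, where FPKM is the number of sequenced fragments scaled to transcript length and to the number of mapped fragments. How many libraries stand behind each stage value was not stated, also where the labels list 1 library, so no value has an SD, an n or a p-value, and no difference between stages has a replicate check. Triplets of values below are in the order booting, milky stage, maturity.

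When reads are assembled against a genome, transcripts often appear where the gene annotation in use has nothing. Known kinds of such loci are long noncoding RNAs (lncRNAs, transcripts with no long open reading frame), RNAs antisense to genes, transcribed transposons and pseudogenes, extensions of known genes, and coding genes that the annotation missed. Libraries made from total RNA can also hold transcripts without a poly(A) tail. In a sweet sorghum stem, booting is the time when the panicle is still enclosed in the flag leaf sheath, the milky stage falls in grain filling, and sucrose is known to build up in the internodes after flowering.

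The unannotated loci split into groups by place. Of the 1773 rows, 1395 (78.7%) lay at a locus that no gene-ID row shared, called own-locus rows below. The other 378 (21.3%) had the same locus as at least 1 gene-ID row, and all of these were on the 10 chromosomes. No own-locus row overlapped a gene-ID row by even 1 base, and overlap of coordinates gave the same 378. Rows of 1 locus carry the coordinates of the whole locus, so the overlap is not a separate check. Of the shared-locus rows, 242 stood beside 1 row with a single gene ID and 32 beside 1 row with several merged IDs, and the rest beside up to 8 gene-ID rows. The own-locus rows were mostly alone, with 1259 of 1395 the only row at their locus, and 136 formed 54 loci of 2 to 14 unannotated rows.

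Own loci were short. Their median length was 1892 bp (quartiles 925 and 3606 bp), and 52.3% were under 2000 bp. Shared loci had a median of 8476 bp and 3.7% were under 2000 bp, since their length is that of the whole locus with its genes. Rows assembled with a single gene ID had a median of 4261 bp. No unannotated locus was shorter than 500 bp, whereas 150 assembled rows with a single gene ID were. Lengths here are those of loci, introns included, not of transcripts.

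Own-locus rows were spread along the chromosomes differently from genes. With each chromosome cut into 10 equal bins, 21.6% of the 1300 own-locus rows on chromosomes lay in bins 4 to 7, the middle, against 6.98% of 31323 rows with a single gene ID. Shared-locus rows, tied to genes by definition, had 8.99% there. The middle of sorghum chromosomes is known to be poor in genes and rich in repeats. The distance from an own-locus row to the nearest gene-ID row had a median of 2893 bp (quartiles 862 and 11252 bp). Of all unannotated rows on chromosomes, 353 lay up to 1 kb from a gene-ID row, 437 at 1 to 5 kb, 283 at 5 to 20 kb and 227 at over 20 kb.

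**Figure D1:**
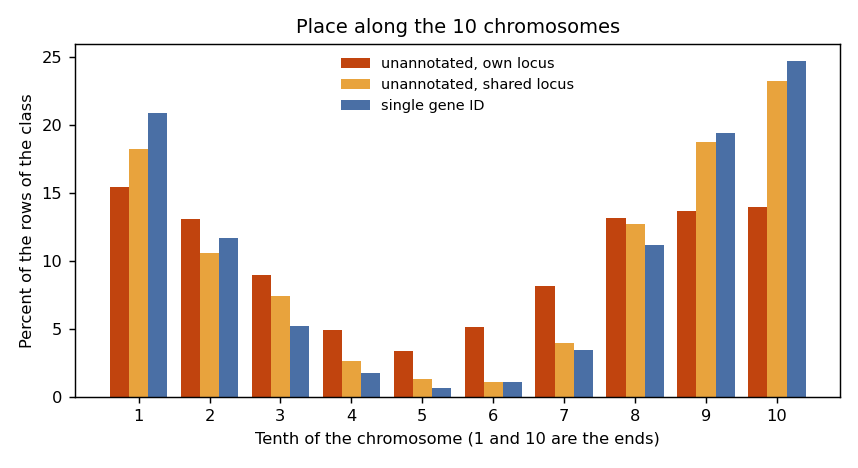
Percent of the rows of each class (y axis) in each of 10 equal bins along the chromosomes (x axis, all 10 chromosomes together), for own-locus unannotated rows, shared-locus unannotated rows and rows with a single gene ID. In bins 4 to 7 together lie 21.6% of the own-locus rows, 8.99% of the shared-locus rows and 6.98% of the single-ID rows.

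By chromosome, the number of unannotated rows ran from 134 on chromosome 6 to 215 on chromosome 5. Per megabase the chromosomes were alike, between 2.17 on chromosome 7 and 2.99 on chromosome 5. Set against genes they were not, with 9.62 unannotated rows per 100 single-ID rows on chromosome 5 and 8.07 on chromosome 8, against 3.89 on chromosome 1. Chromosome 8 also had the highest share of unannotated rows that reached 1 FPKM in a stage, 105 of 150 (70%), followed by chromosome 4 with 106 of 152 (69.7%). The lowest share was on chromosome 6, 66 of 134 (49.3%). Among single-ID rows the order was another one, with 45.6% at 1 FPKM on chromosome 8 and 57.4% on chromosome 1. Single-ID rows here include those that are not assembled, so the sets are not alike.

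RefSeq, a separate annotation, lists a gene at many of these loci. The deposited table names no genome build, but its coordinates could be compared with the RefSeq genes of the assembly Sorghum_bicolor_NCBIv3. Of 10592 gene-ID rows taken directly from the annotation, 519 ended at exactly the last base of a RefSeq gene, and 0 and 1 did so after a move of 1000 bases in either direction. In 210 of the 519 the RefSeq start was the table's start plus 1, and in 0 it was the table's start. The coordinates were therefore read as those of this assembly with starts counted from 0, and starts are printed here with 1 added. No strand is given in the table, so an overlap can be with either strand.

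Of the 1300 own-locus rows on chromosomes, 706 (54.3%) overlapped a RefSeq gene by at least 1 base, and 616 (47.4%) did so over at least 50% of their length. A protein-coding RefSeq gene was overlapped by 352 (27.1%). An lncRNA gene and no coding gene was overlapped by 326 (25.1%), and 28 (2.15%) met only a RefSeq gene of another kind, such as a pseudogene. The remaining 594 (45.7%) met none. RefSeq lncRNA genes covered 25.8% of the bases of own-locus rows and 1.15% of the bases of the chromosomes. For protein-coding genes the figures were 21.4% and 16.9%. Among single-ID rows 3.65% had an lncRNA gene and no coding gene. Rows without any RefSeq gene were shorter, with a median of 1146 bp against 2585 bp for those on an lncRNA gene and 2827 bp for those on a coding gene.

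Unannotated loci were transcribed at low levels. A level of 1 FPKM was reached in at least 1 stage by 986 of the 1773 rows (55.6%), 10 FPKM by 267 (15.1%), 100 FPKM by 23 and 1000 FPKM by 2. Rows listed at 0 in every stage numbered 201 (11.3%), and 586 stayed above 0 but under 1 FPKM. Among assembled rows with a single gene ID, the nearest comparison, 78.4% reached 1 FPKM and 47.2% reached 10 FPKM. Over all 34458 rows of the table, 53.7% reached 1 FPKM, 31.7% reached 10 FPKM and 21.3% were listed at 0 in every stage. By the limit of 1 FPKM alone, unannotated rows were thus near the whole table. Over the 986 rows the stage medians were 2.82, 2.62 and 3.18 FPKM, against 11.1, 11.3 and 11.9 FPKM in single-ID rows that passed the same limit. FPKM is scaled to length, so these levels can be set side by side. In bulk tissue, fewer cells that make a transcript and less of it per cell cannot be told apart.

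**Figure D2:**
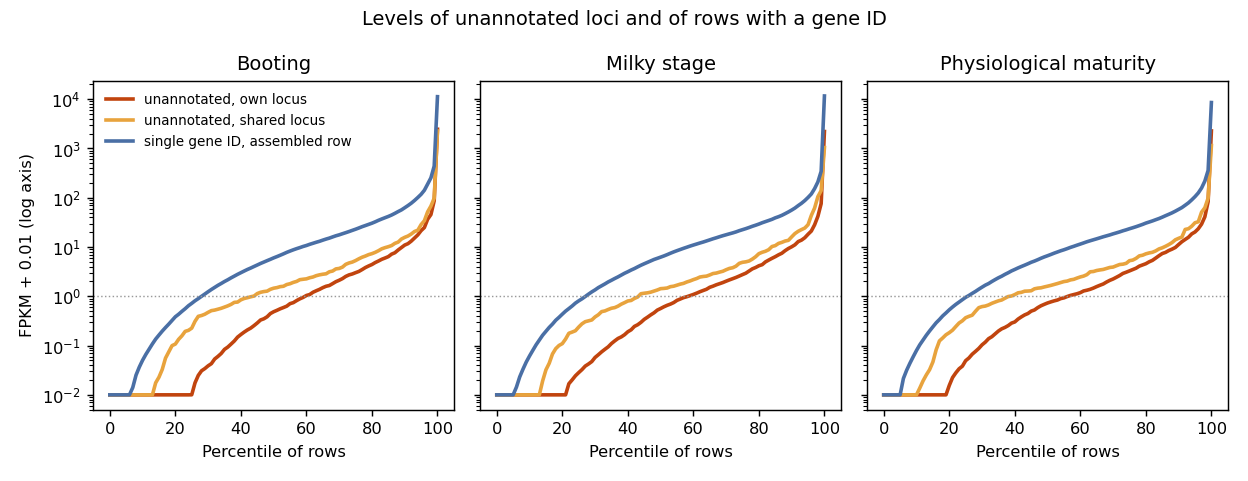
FPKM + 0.01 on a log axis (y) against the percentile of the rows (x) at each stage, for own-locus and shared-locus unannotated rows and for assembled rows with a single gene ID. Each curve holds all rows of its class, and the dotted line marks 1 FPKM. At booting the median over all rows was 0.476 FPKM for own-locus rows, 1.45 for shared-locus rows and 6.01 for assembled single-ID rows.

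Level varied with place and length. Shared-locus rows reached 1 FPKM more often than own-locus rows, 68.8% against 52.0%. Among own-locus rows of 500 bp to under 1 kb, 40.7% reached 1 FPKM and 4.18% reached 10 FPKM, and from 2 to under 5 kb 63.2% and 21.6% did. At 5 kb and over the shares were lower again, 48.0% and 14.6%. With a RefSeq lncRNA gene and no coding gene 63.8% reached 1 FPKM, with a coding gene 61.9% and with none 45.3%. At higher levels fewer rows lacked a RefSeq gene. Of 186 own-locus rows on chromosomes that reached 10 FPKM, 71 lay on an lncRNA gene, 70 on a coding gene and 39 (21%) on no RefSeq gene. Rows up to 1 kb from a gene-ID row reached 1 FPKM in 63.2% of cases and rows over 20 kb away in 50.7%. The stage medians of the rows that did so were 2.37, 2.43 and 2.43 FPKM up to 1 kb and 2.76, 2.13 and 3.33 FPKM over 20 kb, so the order of these classes was not the same at every stage.

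All unannotated rows together made 1.83%, 1.84% and 1.84% of the FPKM summed over the table. Much of this was a handful of rows. MSTRG.19811 (chromosome 9, 1187755 to 1188700) stood at 2457, 2212 and 2272 FPKM, and alone held 16.9%, 17.5% and 18.1% of the class. Its 946 bp locus lies 2455 bp from the nearest gene-ID row, which had at most 6.49 FPKM, and it overlaps the RefSeq coding gene LOC8068677. The row was the highest of the class at every stage and hardly moved, with log2 differences in FPKM + 1 between −0.15 and 0.04.

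MSTRG.5788 (chromosome 2, 63339837 to 63351650) stood at 2269, 1043 and 1146 FPKM. It shares its locus with a row that merges Sobic.002G244700, Sobic.002G244800 and Sobic.002G244901, which had 1663, 903 and 951 FPKM. Both rows were highest at booting. How fragments were divided between rows of 1 locus was not given in the sources used here, so values at a shared locus do not stand for separate transcripts with certainty.

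Abundant own-locus rows took several courses. MSTRG.3333 and MSTRG.3334 occupy 1 locus on chromosome 1 (72269571 to 72273098) with the RefSeq lncRNA gene LOC110431767. The first stood at 223, 247 and 225 FPKM, whereas the second went from 257 to 71.2 and 111 FPKM. Rows at 1 locus thus took different courses. MSTRG.3015 (chromosome 1, 69166213 to 69167106), on the lncRNA gene LOC110437413, went from 356 through 237 to 118 FPKM, or −1.59 in log2(FPKM + 1) over the span. The gene-ID row 481 bp away, Sobic.001G407600, stayed between 155 and 161 FPKM. MSTRG.9550 (chromosome 3, 64080594 to 64081736) went from 221 through 112 to 70.9 FPKM (−1.63), with no RefSeq gene there. Its neighbour Sobic.003G312550, 153 bp away, went the other way at a low level, from 1.14 through 2.16 to 5.46 FPKM.

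MSTRG.15684 (chromosome 6, 49830498 to 49832769) had 209, 158 and 167 FPKM. MSTRG.13457 (chromosome 5, 2267297 to 2270741) had 216, 141 and 144 FPKM, and the gene-ID row nearest to it, Sobic.005G025100, was listed at 0 in every stage. MSTRG.10925 (chromosome 4, 3997898 to 3999860) had 114, 120 and 126 FPKM. All 3 overlap a RefSeq coding gene, and none passed the limit for a change that is set out below. On chromosome 7 the highest row was MSTRG.17503 (38021199 to 38023266), on the lncRNA gene LOC8071005 and 21671 bp from any gene-ID row, with 60.6, 84.3 and 115 FPKM.

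Abundant rows at shared loci included MSTRG.21945 (chromosome 10, 2794302 to 2803342) with 316, 191 and 247 FPKM, beside Sobic.010G034500 with 13.2, 8.23 and 9.23 FPKM. The unannotated row was the higher of the pair at every stage. MSTRG.8202 and MSTRG.8200 lie at the locus of Sobic.003G139100 (chromosome 3, 13452526 to 13455611), where RefSeq has a transcribed pseudogene. The first had 177, 107 and 121 FPKM and the second 120, 124 and 96.8 FPKM, beside 149, 144 and 131 FPKM for the gene-ID row. The longest locus among rows at 1 FPKM or more, 208436 bp, was that of MSTRG.18943 (chromosome 8, 13458559 to 13666994), with 79.5, 48.2 and 53.2 FPKM.

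Stage changes were read with a rule of size. A row entered when it reached 1 FPKM in at least 1 stage, and the words rose and fell are kept for a difference of 1 or more in log2(FPKM + 1). A row could enter through the single stage where it is high, which favours a difference without forcing a call, so the counts concern the 986 rows that entered. Of these, 690 changed in none of the 3 comparisons and 296 (30%) in at least 1. Among 16336 single-ID rows, not matched for level or length, 21.1% did. The highest value lay at maturity in 404 of the 986 rows (41%), at booting in 329 (33.4%) and at the milky stage in 253 (25.7%). Over all 18505 rows that entered the shares were close to these, 37.6%, 35.7% and 26.7%. The limit of 1 FPKM was met at maturity alone by 98 rows, at booting alone by 57 and at the milky stage alone by 53. Over all 18505 rows that entered these counts were 701, 399 and 322, in the same order of stages. As a share of the rows that entered, each was smaller than among the 986 unannotated rows, with no matching for level.

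From booting to the milky stage, 55 of the 986 unannotated rows rose and 71 fell, 5.58% and 7.2%. Of all 18505 rows in the table that entered, 4.83% rose and 5.9% fell, or 10.7% in either direction, so the 12.8% of the unannotated rows was near the background. The largest fall was that of MSTRG.1104 (chromosome 1, 11059711 to 11060226), from 37.5 to 0.297 FPKM, a log2 difference of −4.89, with 0.292 FPKM at maturity. It overlaps the RefSeq coding gene LOC8056725. Sobic.001G139200, whose row lies 26 bp away, went from 31.8 through 0.184 to 0.0756 FPKM. The levels of the pair were close at booting, and both were under 0.3 FPKM afterwards.

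MSTRG.4307 (chromosome 2, 2801577 to 2802463) fell from 32.9 to 0.415 FPKM (−4.58) and rose again to 9.69 at maturity. Its nearest gene-ID row, Sobic.002G030575, did not pass 0.0327 FPKM. MSTRG.12625 (chromosome 4, 61708312 to 61711240) fell from 18.3 to 0.513 FPKM (−3.68) and rose to 5.67, at the locus of Sobic.004G273300, which fell from 143 to 55.4 and stood at 77.3 FPKM at maturity. Both rows of that locus were lowest at the milky stage. MSTRG.14159 (chromosome 5, 55757611 to 55761244) had 6.26, 0.253 and 9.59 FPKM, while the 2 unannotated rows at the same locus had 39.2, 21.0 and 28.4 and 33.1, 7.35 and 12.7 FPKM. MSTRG.13485 (chromosome 5, 2480766 to 2490629), on an lncRNA gene, fell from 5.70 to 0.510 and stood at 0.207 FPKM, whereas MSTRG.13484 at its locus had 78.4, 61.5 and 97.8 FPKM.

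Among rows above 0 at both stages, the largest rise was that of MSTRG.15688 (chromosome 6, 49856932 to 49860275), from 2.67 to 124 FPKM (5.09), with 58.4 FPKM at maturity. The row at its locus, which merges Sobic.006G135575 and Sobic.006G135600, moved differently, with 979, 775 and 1472 FPKM. MSTRG.10792 (chromosome 4, 2596879 to 2602723) rose from 6.07 to 69.7 FPKM (3.32) and fell to 0.608 FPKM (−5.46). Sobic.004G032200 at that locus stayed between 1.42 and 3.56 FPKM, and a further unannotated row there, MSTRG.10791, had 8.38, 4.89 and 8.30 FPKM, so neither shared the peak. MSTRG.15230 (chromosome 6, 44096683 to 44098029) rose from 0.189 to 8.94 FPKM (3.06) and fell to 0.770 FPKM. MSTRG.13843 (chromosome 5, 13318992 to 13324663) rose from 2.22 to 20.9 FPKM (2.77) and had 6.59 FPKM at maturity, beside Sobic.005G090600 with 44.6, 68.2 and 32.6 FPKM. MSTRG.9831 (chromosome 3, 66935903 to 66937108), with no RefSeq gene, rose from 2.75 to 20.02 FPKM (2.49) and fell to 0.684 FPKM.

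**Figure D3:**
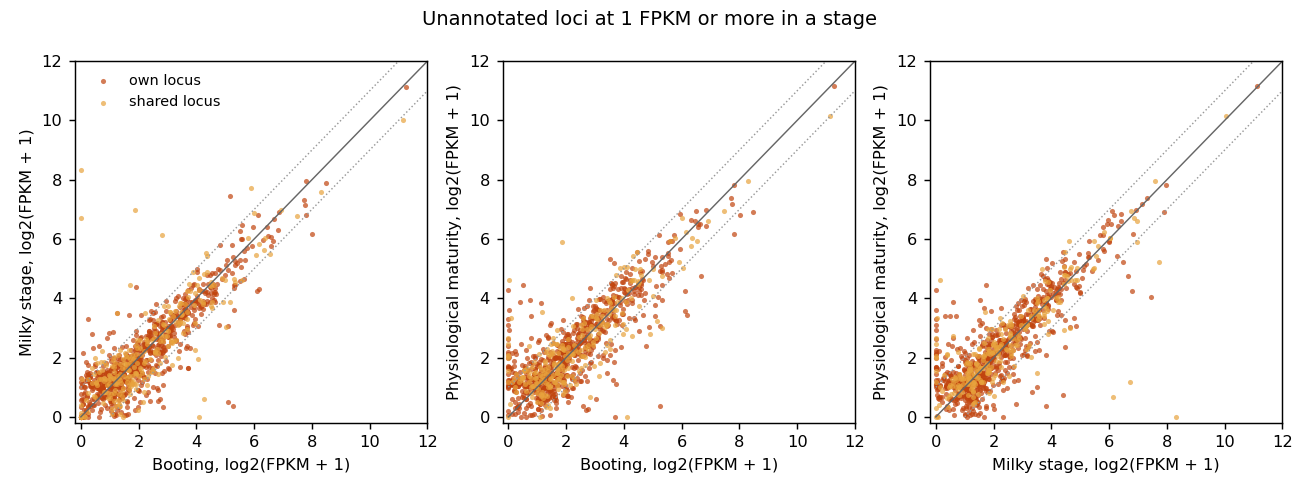
log2(FPKM + 1) of the 986 unannotated rows that reached 1 FPKM, with the earlier stage on the x axis and the later stage on the y axis, 1 point per row. The solid line marks equal values and the dotted lines a difference of 1, the limit for a change. Points outside the dotted lines number 126 for the milky stage against booting, 187 for maturity against booting and 153 for maturity against the milky stage.

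In the second step, to maturity, 91 of the 986 rows rose and 62 fell, 9.23% and 6.29%, or 15.5% together. Over all 18505 rows 5.62% rose and 3.63% fell, or 9.25% together. MSTRG.18796 (chromosome 8, 6245939 to 6326171) rose from 0.101 to 23.8 FPKM (4.49), after 0.0121 at booting. Its locus of 80233 bp also holds a row merging Sobic.008G059100, Sobic.008G059200 and Sobic.008G059400, with 123, 46.5 and 59.4 FPKM. MSTRG.16591 (chromosome 6, 59337636 to 59341105) rose from 0.0238 to 8.98 FPKM (3.29) at the locus of Sobic.006G256801, which stayed under 0.17 FPKM. MSTRG.15057 (chromosome 6, 38286393 to 38287745), on the lncRNA gene LOC110436619 and 53662 bp from the nearest gene-ID row, rose from 0.513 to 13.5 FPKM (3.26). That nearest row, Sobic.006G052100, had 45.8, 8.66 and 17.2 FPKM and was highest at booting.

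Among rows above 0 at both stages, the 5 with the largest falls of this step had all risen in the step before, MSTRG.10792 and MSTRG.9831 among them. MSTRG.107 (chromosome 1, 1169607 to 1171177) fell from 103 to 1.29 FPKM (−5.51) after being listed at 0 at booting. Its locus holds Sobic.001G012500 at 5126, 10735 and 5337 FPKM, so the unannotated row was far below its partner at every stage, and both were highest at the milky stage. MSTRG.7870 (chromosome 3, 8315704 to 8316253) had 35.1, 173 and 15.4 FPKM and fell by 3.41 on the log2 scale. MSTRG.17195 (chromosome 7, 6495624 to 6497148) had 5.02, 13.1 and 0.301 FPKM and fell by 3.44. Neither of the last 2 overlaps a RefSeq gene. The gene-ID row nearest to MSTRG.17195 had 26.0, 22.7 and 25.6 FPKM and did not pass the limit in any comparison. That nearest to MSTRG.7870 had at most 0.0721 FPKM, too low for a change to be called.

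**Figure D4:**
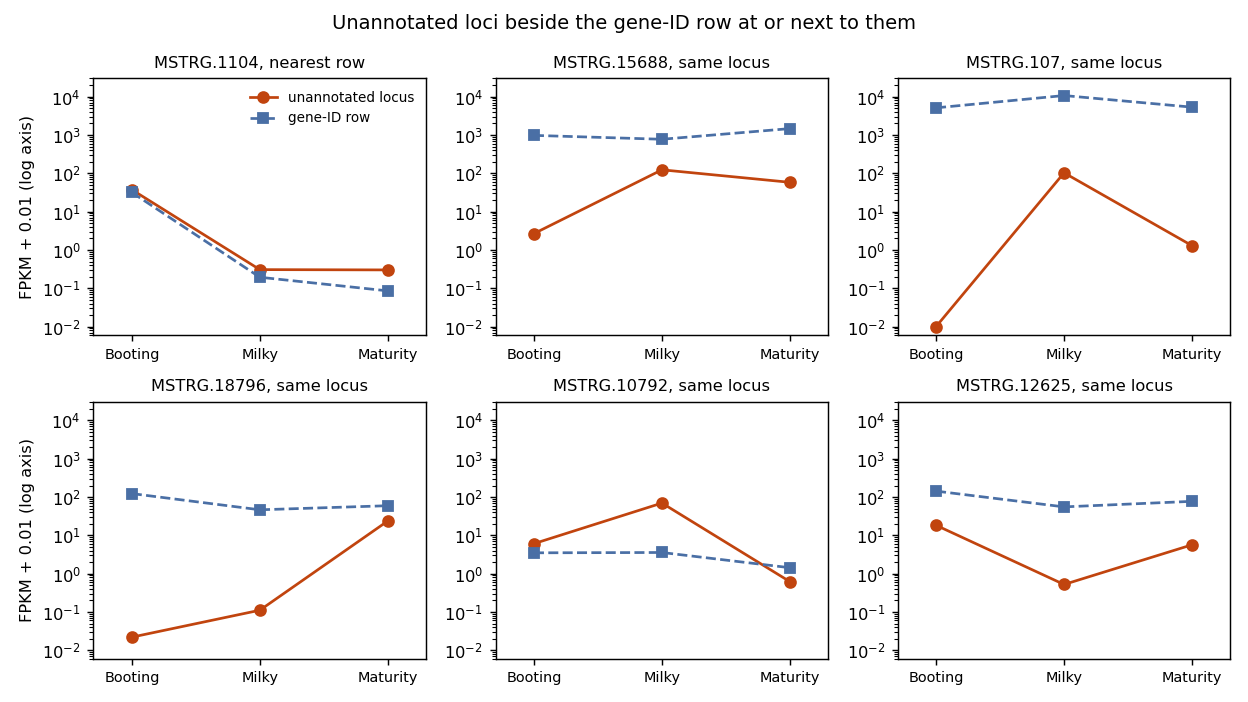
FPKM + 0.01 on a log axis (y) at the 3 stages (x) for 6 unannotated rows (circles, solid) and the gene-ID row nearest to them or at the same locus (squares, dashed). MSTRG.1104 and its neighbour 26 bp away follow each other, from 37.5 and 31.8 FPKM to under 0.3 FPKM, whereas MSTRG.10792 peaks at 69.7 FPKM beside a row between 1.42 and 3.56 FPKM.

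Over the whole span from booting to maturity, 104 rows rose and 83 fell, 10.5% and 8.42%, or 19.0% together, against 8.1%, 6.19% and 14.3% of all 18505 rows. The excess of rises depended on scaling, since quantile normalization gave 78 rises and 99 falls. MSTRG.7474 (chromosome 3, 3611778 to 3613919) rose from 0.408 through 2.31 to 20.9 FPKM (3.96) and was 1 of the 2 rows that rose in both steps. It overlaps the coding gene LOC110433427, and the nearest gene-ID row was listed at 0 throughout. MSTRG.4148 (chromosome 2, 132628 to 137827), on the lncRNA gene LOC8054483, had 0.0182 FPKM at booting, was listed at 0 at the milky stage and had 11.2 FPKM at maturity. Its neighbour Sobic.002G000600, 469 bp away, stayed between 20.4 and 28.6 FPKM.

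Among the falls over the span, MSTRG.14940 (chromosome 6, 15164022 to 15165900) went from 71.5 through 19.0 to 9.90 FPKM (−2.73). The other unannotated row at its locus, MSTRG.14939, went from 26.5 through 7.64 to 4.23 FPKM, so both fell, on the lncRNA gene LOC110436169. MSTRG.22731 (chromosome 10, 42325387 to 42325886), at 500 bp the shortest locus of the class at 1 FPKM or more, went from 67.7 through 17.8 to 10.9 FPKM (−2.52). MSTRG.18470 (chromosome 8, 639467 to 640335) went from 12.2 through 2.10 to 1.15 FPKM (−2.61). Neither of the last 2 overlaps a RefSeq gene. The gene-ID row nearest to MSTRG.22731 had 3.21, 4.58 and 3.73 FPKM and did not pass the limit. That nearest to MSTRG.18470 had 0.556, 0.634 and 0.499 FPKM, too low for a change to be called.

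By pattern over both steps, 75 rows rose in the second step alone (7.61%), against 4.02% of single-ID rows. A fall in the first step alone was seen in 53 rows (5.38%, against 4.64%), a rise in the first step alone in 27 (2.74%, against 3.28%) and a fall in the second alone in 32 (3.25%, against 2.11%). A rise followed by a fall was seen in 26 rows (2.64%, against 1.24%) and a fall followed by a rise in 14 (1.42%, against 1.02%). A rise in both steps was seen in 2 rows (0.203%, against 0.404%) and a fall in both in 4 (0.406%, against 0.159%). These shares were not matched for level or length, and patterns were not counted over all rows that entered.

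The share of changed rows was higher than among single-ID rows in each comparison, by 2.03 points for the milky stage against booting, 4.77 for maturity against booting and 6.56 for maturity against the milky stage. Unannotated rows were also lower in level and shorter in locus. Among single-ID rows changes were more frequent at short loci and, over the span and in the second step, at low levels. Within bins of mean FPKM crossed with bins of locus length, the differences became −1.15, −0.04 and 3.03 points. Only the last of the 3 kept its sign, at 15.5% for the unannotated rows and 12.5% for single-ID rows weighted to the same bins.

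Own-locus and shared-locus rows changed about equally often from booting to maturity, 19.1% of 726 and 18.5% of 260. In the shorter steps the figures were 12.1% and 14.6% for the milky stage against booting and 16.3% and 13.5% for maturity against the milky stage. By length, changes from booting to maturity were seen in 20.1% of rows of 500 bp to under 1 kb, 22.3% from 1 to under 2 kb, 17.1% from 2 to under 5 kb and 18.5% at 5 kb and over. Own-locus rows alone had 19.9%, 22.3%, 15.2% and 24.2% in these bins. Of the 276 rows of 5 kb and over, 181 shared a locus, and 15.5% of those changed. In single-ID rows the share declined with length, from 31.7% through 27% and 13.9% to 9.56%. By chromosome, the share from the milky stage to maturity was highest on chromosome 8, with 28 of 105 rows (26.7%), and lowest on chromosome 7, with 6 of 85 (7.06%). The shares in single-ID rows there were 11.8% and 7.21%.

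Changes were also counted by distance from genes and by RefSeq class, with no test of the differences between classes. Of the 115 rows over 20 kb from a gene-ID row, 22 rose (19.1%) and 5 fell (4.35%) in the second step, against 5.62% and 3.63% of all 18505 rows. Over the span 20 rose (17.4%) and 6 fell (5.22%), against 8.1% and 6.19%. In the first step 3 rose (2.61%) and 11 fell (9.57%), against 4.83% and 5.9%. Rows at 5 to 20 kb had 10 rises (7.09%) and 16 falls (11.3%) among 141 over the span. Both the median of ratios and quantile normalization kept rises in excess in the rows over 20 kb away, with at least 21 rises and at most 9 falls from the milky stage to maturity. With a mean of at least 5 FPKM, 38 of these rows were left, of which 5 rose and 1 fell in that step.

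Of 208 own-locus rows on a RefSeq lncRNA gene and no coding gene, 31 rose (14.9%) and 17 fell (8.17%) over the span. Over all 18505 rows 8.1% rose and 6.19% fell. In the second step 29 of the 208 rose (13.9%) and 11 fell (5.29%), against 5.62% and 3.63% of all rows. The direction turned among the 97 of the 208 whose mean was 5 FPKM or more. Of these 97, 6 rose and 12 fell over the span and 4 rose and 8 fell in the second step. Of 412 single-ID rows of the same RefSeq class, 44 rose (10.7%) and 18 fell (4.37%) over the span. In the second step 38 of the 412 rose (9.22%) and 14 fell (3.4%). Of the 269 own-locus rows with no RefSeq gene, 26 rose (9.67%) and 30 fell (11.2%) over the span. Among 378 single-ID rows with no RefSeq gene, 54 rose (14.3%) and 83 fell (22.0%), so more falls than rises were seen there too. None of these splits was matched for level or length.

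**Figure D5:**
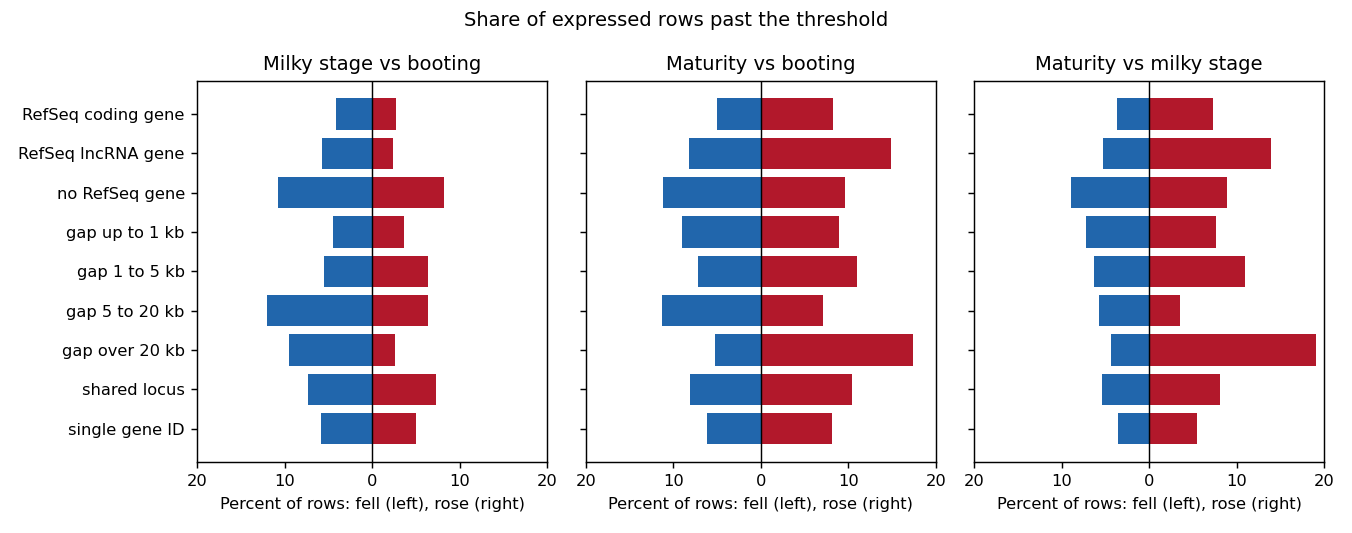
Percent of expressed rows that rose (right) and fell (left) in each comparison (panels), for own-locus unannotated rows by the RefSeq gene they overlap, for unannotated rows by their gap to the nearest gene-ID row or at a shared locus, and for single-ID rows. The RefSeq and the gap classes are separate splits of the same rows. Among rows over 20 kb from a gene-ID row, 19.1% rose and 4.35% fell in the second step.

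Changes of unannotated rows were set beside those of the gene-ID row at the same locus. For 204 shared-locus rows at 1 FPKM or more, a gene-ID row of the locus had also reached 1 FPKM, and the one with the highest mean was used. In the first step 36 of the 204 unannotated rows changed, with the gene-ID row in the same direction in 7 and in the opposite one in 0, and the gene-ID row changed alone in 17 pairs. In the second step 31 changed, with 10 in the same direction and 0 opposite, and the gene-ID row changed alone in 12. Over the span 43 changed, with 9 the same and 2 opposite, and the gene-ID row changed alone in 20. Most unannotated rows that changed thus did so without a called change of the gene-ID row, and where both changed the direction was mostly shared. Called gene-ID rows were few in any case, and neither row changed in 151 pairs in the first step, 161 in the second and 141 over the span. In each comparison the gene-ID row was called in a larger share of pairs beside a changed unannotated row than beside an unchanged one. This difference was not tested. For own-locus rows with such a neighbour within 5 kb, 38 of 252 changed over the span, with the neighbour in the same direction in 7 and in the opposite direction in 2, and the neighbour changed alone in 36. Beyond 5 kb, 23 of 106 changed, with 0 in the same direction and 4 in the opposite one, and the neighbour changed alone in 12.

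A few unannotated rows reached 10 FPKM in a stage and were listed at 0 in another, and no fold is given against a stage listed at 0. Besides MSTRG.107 and MSTRG.4148 these were MSTRG.22982 (chromosome 10, 52122844 to 52228422) with 320 FPKM at the milky stage alone, MSTRG.20362 (chromosome 9, 16975816 to 16976617) with 18.4 FPKM at maturity alone, MSTRG.19357 (chromosome 8, 56470318 to 56474560) with 16.1 FPKM at booting alone, and MSTRG.1725 (chromosome 1, 22063127 to 22065758) with 12.03, 2.17 and 0 FPKM. The gene-ID rows at the locus of MSTRG.22982 were at 0 in the same stages, and the row merging Sobic.010G182100 with 3 more IDs had 1879 FPKM at the milky stage. MSTRG.19357 shares its locus with Sobic.008G136000, at 5187, 2634 and 2476 FPKM. A value of 0 can be a failed estimate, which was not tested here.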

How the data were processed

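The deposited values are FPKM, per the file headers, with 1 value per stage made by the authors. How libraries were combined, and how many fragments stand behind a value, was not given in the sources used here. Per the submitters' processing notes, HISAT2 2.0.5, Bowtie2 2.2.9, Cuffdiff and cutadapt 1.8.1 were used, with no role given for any. A stranded kit for total RNA was used, per the labels' protocols. The genome build was not stated there, so the coordinates were compared with RefSeq genes as described above.

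Log2 differences used a pseudocount of 1, so changes of low values are understated. Calls were made over the whole table, and only counts and values were compared. Members, lists and bins were chosen with earlier results of these data known. The RefSeq comparison, and the settings tried on it and on distant rows, were added after the data were seen. Rows are named as the 5 largest rises and falls per comparison among rows above 0 in both stages, the 10 highest means, the highest mean on each chromosome and at shared loci (5 rows), rows at 10 FPKM or more and 0 elsewhere, and the longest and shortest locus. The files do not pair gene IDs with descriptions and the RefSeq table gives only locus symbols, so no row is described by function and the tissue was not checked against marker genes. Alternatives were pseudocounts of 0.1 and 5, other filters, scalings and thresholds, and 1 row per locus. The counting code was tested on simulated data. Computations used matplotlib 3.10.9, scipy 1.17.1, pandas 2.3.3 and numpy 2.4.6 under Python 3.11.15.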

Additional observations from a re-analysis of the deposited data

How the results depend on the processing

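The totals of changed unannotated rows were 126 for the milky stage against booting, 187 for maturity against booting and 153 for maturity against the milky stage. They stayed within 1.5 times these values after rescaling by the median of ratios, after quantile normalization and with 1 row per locus. Dropping the filter left the totals at 126, 187 and 153, but that is no check of them. With a pseudocount of 1, FPKM values below 1 span less than the log2 difference of 1 needed for a call. With 0.1 as the pseudocount the totals were 266, 319 and 283, and with 5 they were 33, 49 and 45. Asking for a mean of 5 FPKM or more left 47, 66 and 56 changed rows. Asking for a difference of 2 in log2 left 23, 40 and 40. These moves follow from the weight of low values, the rows that enter or the size asked for. The excess of rises from booting to maturity turned with a mean of at least 5 FPKM (23 rose, 43 fell), with a pseudocount of 5 (20 and 29) and after quantile normalization (78 and 99); the cause was not tested. The excess of falls from booting to the milky stage turned with a difference of 2 in log2 (12 rose, 11 fell). In the second step the excess of rises turned with a mean of at least 5 FPKM (27 rose, 29 fell).

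The difference in changed share from single-ID rows, matched within bins of mean FPKM and locus length, was −1.15 and −0.0437 points for the comparisons with booting and 3.03 for maturity against the milky stage. For own-locus rows against assembled single-ID rows alone at their locus, a setting chosen after seeing the data, it was −3.44, −1.91 and 2.4 points. Rows reaching 5 FPKM numbered 445, against 986 at 1 FPKM. Of the 117 log2 differences of named rows, 43 moved by more than the log2 of 1.5 with a pseudocount of 0.1. None of 1 or more changed sign, but a pseudocount cannot change a sign, so this is no check. Depth per stage is unknown, which limits what values near 0 can show. No paired analysis was possible because the table gives a single value per stage, and for the same reason no replicate could be left out.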

Other observations

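On unplaced scaffolds, which hold 95 of the unannotated rows, 10 rows reached 1 FPKM, a lower share (10.5%) than in the class as a whole (55.6%). The highest were on the scaffold super_414. At 4291 to 5491 lay MSTRG.23766, with 102, 100.4 and 26.1 FPKM in stage order, and MSTRG.23765, with 68.7, 111 and 17.9 FPKM. MSTRG.23768, at 6165 to 7674 of the same scaffold, had 46.6, 88.7 and 36.3 FPKM. All 3 fell in the second step, by 1.91, 2.57 and 1.27 on the log2 scale. No gene-ID row shares these loci, and RefSeq genes were not compared on scaffolds.

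Loci made of several unannotated rows and no gene ID varied in activity. The locus with the most rows, 14, lies on the scaffold super_70 and reached at most 0.366 FPKM. On chromosome 5 a locus from 45482142 to 45581310 held 6 rows, of which 5 reached 1 FPKM, with a highest value of 4.72 FPKM. Another locus of 6 rows on that chromosome, from 12906294 to 12918123, was listed at 0 in every row and stage.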
